A study of Mus musculus with 18 samples.

Results

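Mitochondrial ribosomal protein genes were followed across 6 groups of mouse bone marrow-derived basophils on an Illumina bead array. The genes were found by symbol: a probe was taken where the platform annotation gives it a single gene symbol that starts with Mrpl (large subunit) or Mrps (small subunit) and a number. Of the 76 symbols found, with 132 probes, 72 genes and 109 probes had a detection p under 0.05 on at least 3 arrays and were analysed. They are set against the 9973 genes that passed the same filter, each gene standing for its brightest probe. By symbol 45 of the 72 genes are Mrpl and 27 are Mrps.

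The ribosome inside mitochondria is built from proteins that are all encoded in the nucleus, made in the cytosol and imported, and from RNAs encoded in mitochondrial DNA. It translates the few membrane subunits of the respiratory chain and ATP synthase that mitochondrial DNA encodes, so its output is matched to that of many nuclear genes. Some of its proteins have counterparts in bacterial ribosomes and others occur only in mitochondria. Basophils carry the high-affinity IgE receptor and the IL-33 receptor ST2, and respond to either stimulus with cytokine release.

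The donors of the marrow from which the basophils were grown were C57BL/6J mice, 4 to 6 weeks old. The groups were ST2KO basophils given IL-33, ST2KO basophils activated through IgE, unstimulated ST2KO basophils, WT basophils given IL-33, WT basophils activated through IgE and unstimulated WT basophils, with 3 arrays each (18 arrays) and stimulation for 4 h. ST2KO cells lack the IL-33 receptor by label. No probe is paired with its gene, Il1rl1, so that label could not be checked on the targeted gene. The labels do not say whether the 3 samples of a group are separate animals or cultures, and a p-value here covers only how far those samples vary, which could be technical variation.

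Between 32.2% and 34.8% of the 45281 probes were above background on an array, and replicate arrays of a group correlated at 0.981 to 0.994. Most of the 17 basophil markers were bright: Mcpt8, a basophil protease, had group means of 12.42 to 13.00 and Fcer1a, the IgE-binding chain of the receptor, 13.73 to 14.02 (normalized log2 intensity, the scale of all levels here). Dim on the same list were Itga2 at 4.48 to 4.87, Cebpa at 5.58 to 6.32 and Gata1 at 5.63 to 7.07. Markers of other cells were present and some moved with IgE. The mean level of 7 measured dendritic cell markers was 6.48 to 6.68 on ST2KO IgE arrays and 5.81 to 5.93 on unstimulated ST2KO arrays, and 6.72 to 6.98 on WT IgE arrays and 5.97 to 6.23 on unstimulated WT arrays, with 4 of the 7 higher after IgE in each genotype. The mean level of 9 measured mast cell markers was 7.97 to 8.12 on ST2KO IgE arrays and 7.16 to 7.36 on unstimulated ST2KO arrays, and 7.68 to 7.86 on WT IgE arrays and 6.97 to 7.30 on unstimulated WT arrays, with 5 higher and 1 lower in each genotype. Of the dendritic list, Flt3, Ciita, Xcr1, Clec9a and Cd209a were not detected, and of the mast cell list, Mcpt1, Mcpt2, Mitf and Mrgprb1 were not. The eosinophil, neutrophil, macrophage, lymphocyte and erythroid lists had 3, 10, 11, 2 and 7 measured markers. At most 1 marker of a list was higher and at most 3 were lower after IgE. Among all genes 22.8% were higher and 26.4% lower in ST2KO cells, and 22.7% and 24.3% in WT cells. Of the erythroid list, Hba-a1 had group means of 5.605 after IgE and 8.59 without stimulation in ST2KO cells, and 5.60 and 8.49 in WT cells. Tfrc went the other way, at 9.55 and 6.55 in ST2KO cells and 9.38 and 6.33 in WT cells. The part of these markers in the results below was not tested. In bulk samples, fewer cells of a type and less RNA per cell cannot be told apart.

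The probes of the mitochondrial ribosomal protein genes were bright. Their median signal over all arrays was 8.78, against 6.85 for all genes tested, and 62 of the 72 lay above that median of all genes. The brightest were Mrpl33 at 11.78, Mrps24 at 11.18, Mrps33 at 11.13, Mrps17 at 10.40 and Mrpl23 at 10.40. The dimmest were Mrpl57 at 4.79, Mrpl35 at 5.08, Mrpl51 at 5.10, Mrpl39 at 5.35 and Mrps5 at 5.49. Levels of different probes are not comparable as amounts of RNA, so this order describes signal only. Just inside the detection rule were Mrpl57 (above background on 8 arrays), Mrpl35 (10 arrays) and Mrpl51 (14 arrays), while the other 69 genes were above background on all 18. Just outside were Mrps14, Mrpl19, Mrpl32 and Mrpl45, detected on 0 arrays. Mrpl45 tethers the ribosome to the inner membrane.

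The mean over the 72 genes was 8.76 to 8.79 on the ST2KO IgE arrays and 8.40 to 8.44 on the unstimulated ST2KO arrays. In WT cells it was 8.68 to 8.78 on the IgE arrays and 8.13 to 8.41 on the unstimulated arrays. After IL-33 it was 8.35 to 8.45 in ST2KO cells and 8.24 to 8.44 in WT cells. The IgE arrays lay above all others in both genotypes, and the IL-33 arrays overlapped the unstimulated ones. Replicate 2 was the lowest array of each WT group, at 8.24 after IL-33, 8.68 after IgE and 8.13 without stimulation. The same 3 arrays had the highest eosinophil marker level of their groups, at 6.90, 6.76 and 6.61 in that order against 5.35 to 6.31 on the other WT arrays, and the highest macrophage and monocyte marker level, at 8.80, 8.80 and 8.92 against 7.99 to 8.56 on the other WT arrays. These arrays also had the highest basophil marker level of their groups, at 11.68, 12.05 and 11.64 in the same order. Their erythroid and megakaryocyte marker level was the lowest of their groups, at 7.27, 7.14 and 7.26. The part of these markers in the lower level was not tested. Of 10 listed eosinophil markers only 3 were measured, and among them Ear6 and Il5ra were dim, with group means of 4.49 to 5.61 and 4.53 to 4.79. Prg3, Epx, Siglec5, Siglecf, Ear1, Ear2 and Ccr3 were not measured.

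**Figure D1:**
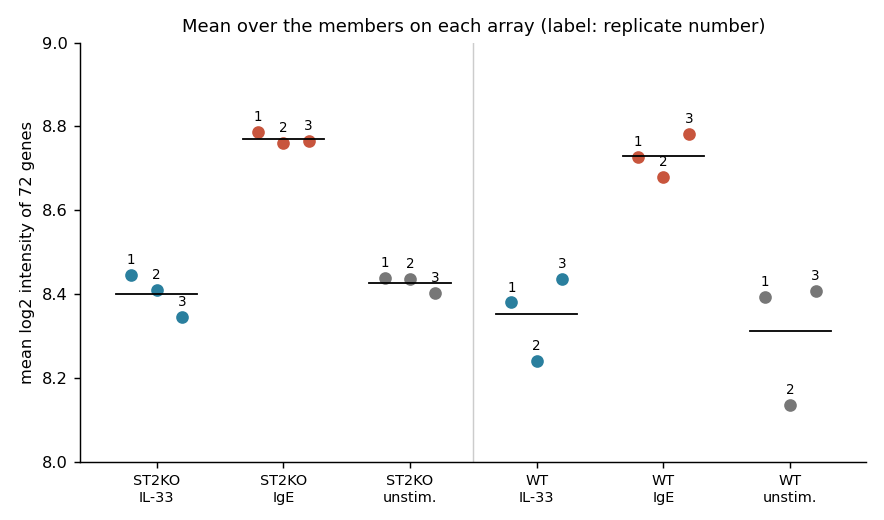
Mean normalized log2 intensity over the 72 mitochondrial ribosomal protein genes on each of the 18 arrays (points, labelled by replicate number) by group, with the group mean as a bar. The 6 IgE arrays lie between 8.68 and 8.79, above all other arrays, and WT replicate 2 is the lowest array of each WT group.

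IgE activation raised a large share of the genes in both genotypes. In ST2KO cells 31 of 72 rose and 8 fell at an adjusted p under 0.05, with 33 not past it. Among all genes tested 22.8% rose and 26.4% fell in that comparison, against 43.1% and 11.1% of the members. In WT cells 33 of 72 rose and 4 fell, which is 45.8% and 5.56%, against 22.7% and 24.3% of all genes. The median log2 difference over the 72 genes was 0.19 in ST2KO cells and 0.38 in WT cells, and over all genes tested it was -0.02 in both. Most of the rises were under 2-fold: 6 members in ST2KO cells and 10 in WT cells rose by 2-fold or more, where 7.38% and 7.61% of all genes did. One of the WT genes, Mrpl35, has only a bound (described below), which leaves 9. By that much 0 members fell, against 7.30% of all genes in ST2KO cells and 6.44% in WT cells. Without regard to a p, 40 members in ST2KO cells had all IgE arrays above all unstimulated arrays and 10 had them below (28.1% and 32.5% of all genes), and in WT cells 39 were above and 8 below (24.6% and 26.3% of all genes). The WT median depends on 1 array, since it was 0.22 without unstimulated WT replicate 2, and without the 3 WT replicate 2 arrays it was 0.22 with 29 genes higher and 5 lower.

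**Figure D2:**
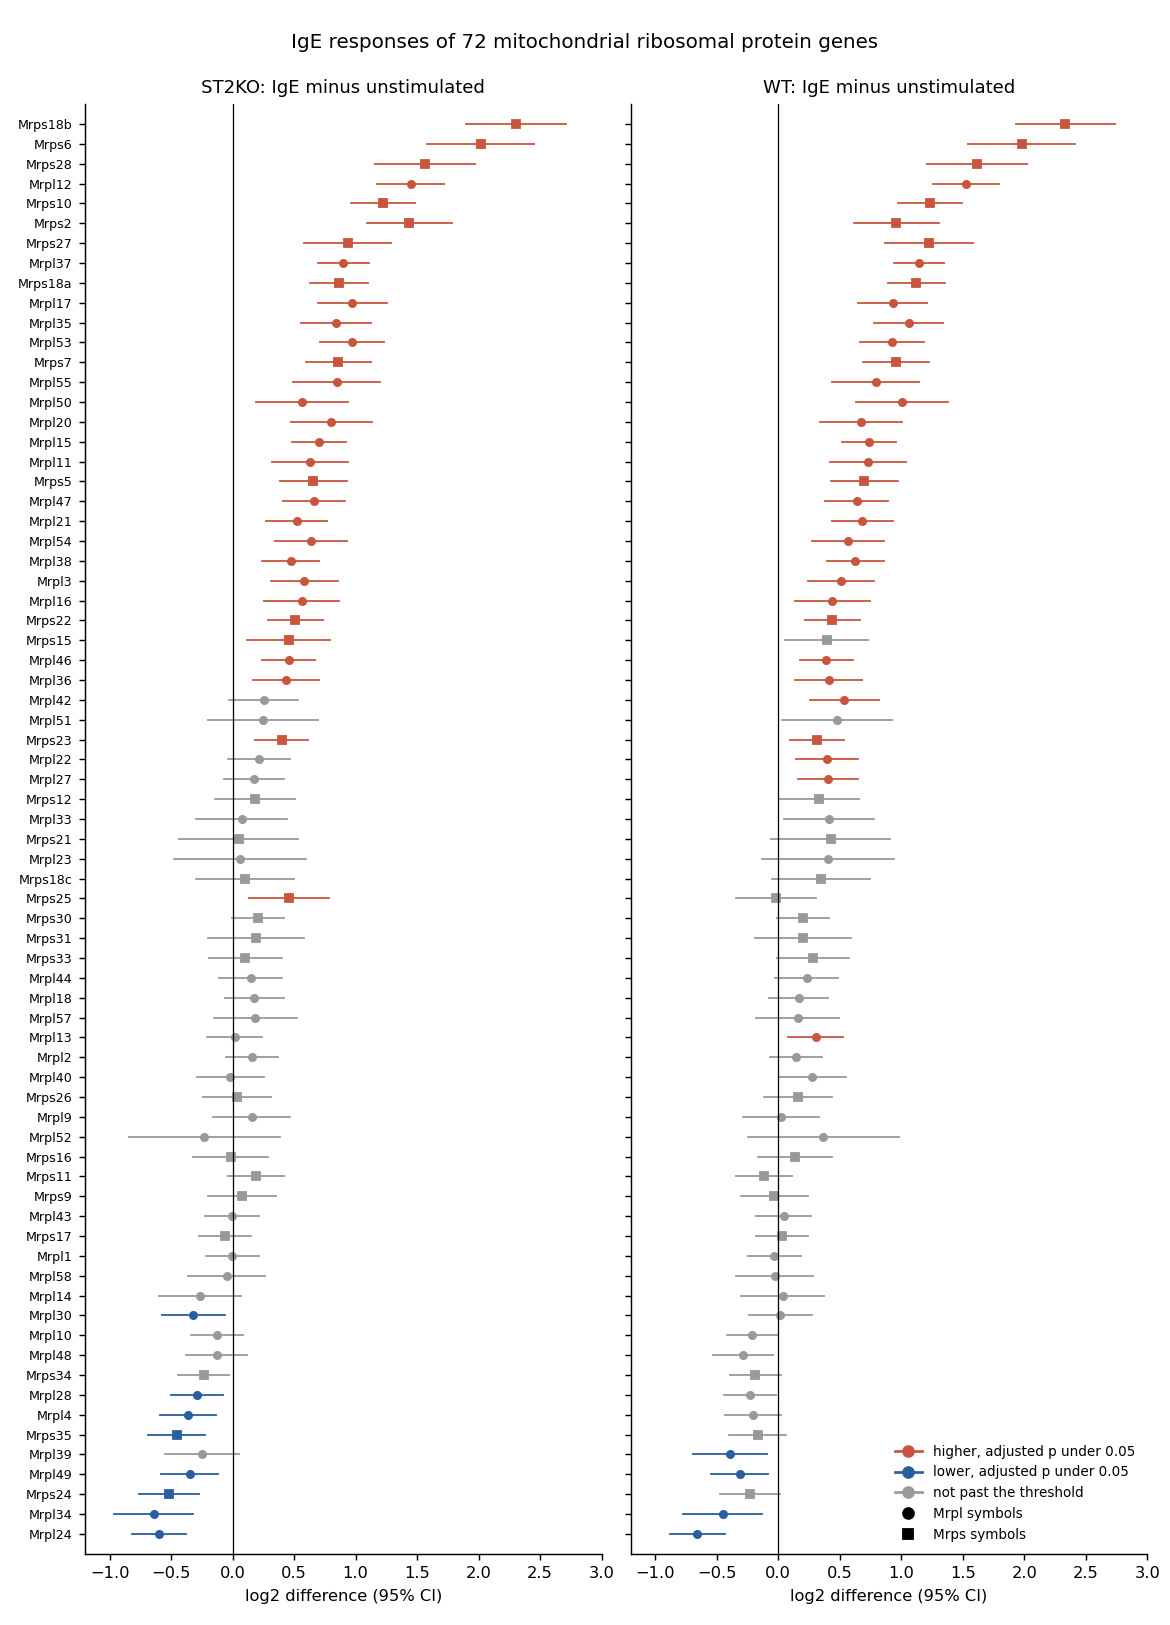
Log2 difference between IgE-activated and unstimulated basophils for each of the 72 genes (ST2KO left, WT right), with 95% confidence intervals, sorted by the mean of both genotypes. Mrps18b, Mrps6, Mrps28 and Mrpl12 lead in both panels and Mrpl24 is at the bottom. The WT value of Mrpl35 is set against arrays that are not above background.

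Rises were found among both kinds of symbol. Of the Mrpl genes 18 of 45 rose and 6 fell in ST2KO cells, and 22 rose and 4 fell in WT cells. Of the Mrps genes, which include Mrps18a although its protein sits in the large subunit, 13 of 27 rose and 2 fell in ST2KO cells, and 11 rose and 0 fell in WT cells (limma, with 13 of the 27 at an unadjusted p under 0.05 in WT cells). Of the 45 genes with a bacterial counterpart, 21 rose and 6 fell in ST2KO cells and 23 rose and 2 fell in WT cells. Of the 27 without one, 10 rose and 2 fell in each genotype. The difference between these classes was not tested.

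Of the 72 genes 25 had several kept probes, and 3 whose brightest probe passed after IgE had a probe of the opposite sign. Mrpl15 rose by 0.74 in WT cells, and 1 of its 6 probes had the opposite sign (-0.09). Mrpl49, described below, had 2 of 4 opposite in ST2KO cells and 1 of 4 in WT cells. Mrps25 rose by 0.46 in ST2KO cells, with 2 of its 3 probes opposite (-0.24 and -0.41), and differed by -0.02 in WT cells. The probe at -0.41 itself had an adjusted p of 0.0327 over the kept probes (limma), so the probes of Mrps25 disagree on its direction.

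Mrps18b changed most. It encodes one of 3 mammalian versions of a small-subunit protein that bacteria have in a single form. Its level was 9.78, 9.68 and 9.81 on the ST2KO IgE arrays and 7.65, 7.26 and 7.44 on the unstimulated ST2KO arrays. In the WT groups it was 9.68, 9.25 and 9.56 after IgE and 7.28, 6.87 and 7.34 without stimulation. Every IgE array was above every unstimulated array, and the rise was 4.94-fold in ST2KO cells (log2 2.30 ± 0.19 SE, adjusted p = 3.63e-08) and 5.05-fold in WT cells (log2 2.34 ± 0.19 SE, adjusted p = 3.44e-08). Its other kept probes rose too, by log2 2.24 and 1.96 in ST2KO cells and by 2.09 and 1.91 in WT cells.

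The other versions responded less. Mrps18a had 9.28, 9.19 and 9.22 in ST2KO cells after IgE and 8.34, 8.38 and 8.36 in unstimulated ST2KO cells, a rise of log2 0.87 ± 0.11 (SE, adjusted p = 5.35e-06). In WT cells it had 9.13, 9.25 and 9.46 after IgE and 8.15, 7.99 and 8.34 without stimulation, a rise of log2 1.12 ± 0.11 (SE, adjusted p = 3.1e-07). Mrps18c had 9.68, 9.71 and 9.87 after IgE in ST2KO cells and 9.72, 9.55 and 9.68 in unstimulated ST2KO cells, and its log2 differences of 0.10 in ST2KO cells (95% interval -0.30 to 0.50) and 0.35 in WT cells (-0.05 to 0.75) did not pass. With replicate numbers blocked within genotype the WT difference of Mrps18c passed (adjusted p = 0.0482). The 3 genes lie on different loci, Mrps18a and Mrps18b on chromosome 17 and Mrps18c on chromosome 5, and they cannot be ranked by level since their probes differ.

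Mrps6 encodes a small-subunit protein whose bacterial counterpart binds next to that of the Mrps18 proteins. It had 10.05, 10.12 and 10.14 in ST2KO cells after IgE and 8.13, 7.95 and 8.18 in unstimulated ST2KO cells, a 4.05-fold rise (log2 2.02 ± 0.21 SE, adjusted p = 3.88e-07). In the WT groups it had 9.76, 9.38 and 10.27 after IgE and 8.22, 7.41 and 7.84 without stimulation, a 3.95-fold rise (log2 1.98 ± 0.21 SE, adjusted p = 5.39e-07). The groups did not overlap, although the WT replicates varied more than the ST2KO replicates.

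Mrps28, a small-subunit protein, had 8.49, 8.42 and 8.53 in ST2KO cells after IgE and 6.76, 6.97 and 7.02 in unstimulated ST2KO cells. In WT cells it had 8.40, 7.88 and 8.43 after IgE and 6.87, 6.09 and 6.90 without stimulation. The rises were 2.95-fold in ST2KO cells (log2 1.56 ± 0.19 SE, adjusted p = 3.54e-06) and 3.07-fold in WT cells (log2 1.62 ± 0.19 SE, adjusted p = 2.59e-06), with no overlap between groups.

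Mrpl12 led the large subunit. Its protein forms the flexible stalk that recruits translation factors and is also known to bind the mitochondrial RNA polymerase. It had 9.81, 9.72 and 9.57 in ST2KO cells after IgE and 8.35, 8.37 and 8.04 in unstimulated ST2KO cells, a 2.73-fold rise (log2 1.45 ± 0.13 SE, adjusted p = 7.56e-08). In the WT groups it had 9.77, 9.64 and 9.81 after IgE and 8.27, 8.21 and 8.16 without stimulation, a 2.88-fold rise (log2 1.53 ± 0.13 SE, adjusted p = 4.49e-08). Mrpl11, from the base of that stalk, rose as well, and Mrpl10, which anchors the stalk, did not pass in either genotype.

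**Figure D3:**
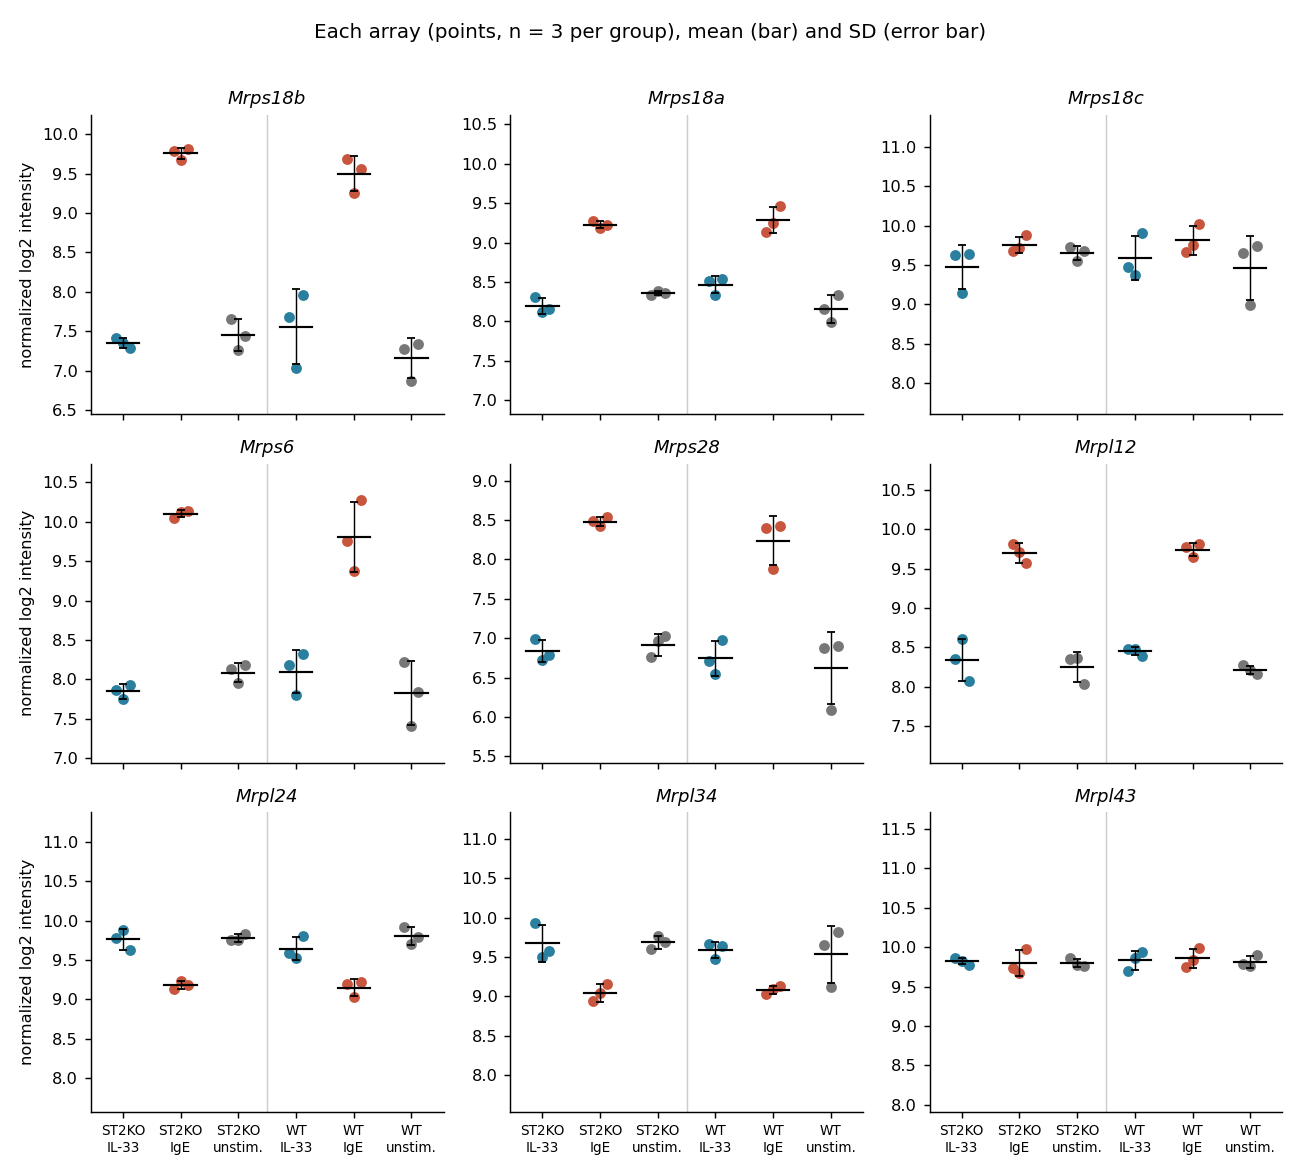
Normalized log2 intensity of 9 of the genes on each array (points, 3 per group), with group mean and SD, ST2KO groups left of WT groups. Mrps18b, Mrps6, Mrps28 and Mrpl12 are high in the IgE groups, Mrps18a less so, and Mrpl24 and Mrpl34 are low there. Group means of Mrps18c lie between 9.46 and 9.81, with an SD of 0.41 in unstimulated WT cells. Those of Mrpl43 lie within 0.06 of each other.

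Further genes came from both subunits. Mrps2 rose by log2 1.44 ± 0.16 in ST2KO cells and 0.96 ± 0.16 in WT cells (SE), and Mrps10 by 1.22 ± 0.12 and 1.23 ± 0.12. Mrps27, a protein of the RNA-binding pentatricopeptide repeat type, rose by 0.94 ± 0.17 in ST2KO cells and 1.23 ± 0.17 in WT cells. In the large subunit Mrpl37 rose by 0.90 ± 0.10 in ST2KO cells and 1.14 ± 0.10 in WT cells, and Mrpl50 by 0.56 ± 0.18 and 1.01 ± 0.18. No unstimulated WT array had Mrpl35 above background. Its WT rise was at least 1.73-fold, with group means of 5.61 after IgE and 4.55 without stimulation (adjusted p = 4.6e-06). Mrpl17 and Mrpl53 rose by 0.97 each in ST2KO cells and by 0.93 and 0.92 in WT cells.

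The IgE response of the genes was shared between genotypes. Of the 72 genes 29 rose in both and 3 fell in both, and 0 rose in one genotype and fell in the other, which is 40.3% and 4.17% of the members, against 18.9% and 20.8% of all genes. Beyond those named, the risers in both were Mrpl3, Mrpl11, Mrpl15, Mrpl16, Mrpl20, Mrpl21, Mrpl36, Mrpl38, Mrpl46, Mrpl47, Mrpl54, Mrpl55, Mrps5, Mrps7, Mrps22 and Mrps23. The 31 genes that rose in ST2KO cells spanned log2 0.40 to 2.30, and the 33 in WT cells spanned 0.31 to 2.34. Mrps15 and Mrps25 passed in ST2KO cells alone and Mrpl13, Mrpl22, Mrpl27 and Mrpl42 in WT cells alone, while Mrps15 also passed in WT cells with replicate numbers blocked within genotype (adjusted p = 0.0246), and the test of the difference between genotypes (the interaction) passed for none of the 72 genes. It called 0 of 9973 genes at an adjusted p under 0.05 (0% of all genes, limma), with 1 member and 434 genes at an unadjusted p under 0.05. Across the 72 genes the log2 differences of the genotypes correlated at r = 0.94 (Spearman 0.91), as they did across all 9973 genes (r = 0.95, Spearman 0.91). Genes are not independent replicates, and no array is shared between the genotypes.

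A small set fell after IgE. Mrpl24, whose bacterial counterpart lies near the peptide exit tunnel, had 9.13, 9.23 and 9.19 in ST2KO cells after IgE and 9.75, 9.75 and 9.84 in unstimulated ST2KO cells, log2 -0.60 ± 0.11 (SE, adjusted p = 0.000149). In WT cells it had 9.20, 9.03 and 9.22 after IgE and 9.92, 9.70 and 9.79 without stimulation, log2 -0.66 ± 0.11 (SE, adjusted p = 6.36e-05). The groups did not overlap in either genotype.

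Mrpl34, another protein with a bacterial counterpart, had 8.94, 9.04 and 9.16 in ST2KO cells after IgE and 9.60, 9.77 and 9.69 in unstimulated ST2KO cells, log2 -0.64 ± 0.15 (SE, adjusted p = 0.00203). In the WT groups it had 9.03, 9.09 and 9.13 after IgE and 9.66, 9.12 and 9.82 without stimulation, log2 -0.45 ± 0.15 (SE, adjusted p = 0.0217), so that 1 unstimulated WT array lay among the IgE arrays. The WT call was lost without unstimulated WT replicate 1 or 3 or WT IgE replicate 1, with adjusted p up to 0.126.

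Mrpl49 fell by 0.35 in ST2KO cells and by 0.31 in WT cells on its brightest probe (log2), but with the mean of its 4 probes the adjusted p was 0.633 in ST2KO cells and 0.508 in WT cells. Mrpl39 fell by 0.39 in WT cells and differed by -0.25 in ST2KO cells (adjusted p = 0.165). In ST2KO cells alone Mrps24 fell by 0.52, Mrps35 by 0.45, Mrpl4 by 0.36, Mrpl30 by 0.32 and Mrpl28 by 0.29, where the WT differences of -0.23, -0.17, -0.21, 0.02 and -0.23 did not pass. The calls of Mrpl4, Mrpl30 and Mrpl28 were each lost without certain single arrays (adjusted p up to 0.203), and that of Mrpl39 under 9 of 32 alternatives (adjusted p up to 0.148). These differences between genotypes were tested by the interaction and none passed. Mrpl43 varied least of all, with group means within 0.06 of each other, followed by Mrps16 within 0.14 and Mrpl1 within 0.14.

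Across the 72 genes the mean level and the log2 IgE difference had a Spearman correlation of -0.37 in ST2KO cells and -0.24 in WT cells, given as a description. Mrps18b, Mrps6 and Mrps28 had the widest ranges of their 6 group means, 2.59, 2.28 and 1.86. The median range was 0.49 over the 72 genes and 0.56 over all genes.

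IL-33 left the genes close to their unstimulated level. In ST2KO cells 0 of 72 passed, as did 0 of 9973 genes (0% of all genes, limma), with 1 member and 274 genes at an unadjusted p under 0.05. The 95% intervals of all 72 log2 differences lay within 2-fold and those of 67 within 1.5-fold. The 3 largest differences upward were Mrps10 at 0.29, Mrpl48 at 0.18 and Mrps27 at 0.17, and downward Mrpl52 at -0.38, Mrpl42 at -0.25 and Mrps6 at -0.24, each with an adjusted p of 1. Without ST2KO IL-33 replicate 2, Mrpl52 was at -0.09 and Mrpl48 at 0.07, and without unstimulated ST2KO replicate 3 Mrps27 was at 0.04.

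In WT cells, which have the receptor, 1 of 72 passed after IL-33, where 3.01% of all genes rose and 0.772% fell. Mrpl38, of the large subunit, had 9.05, 8.78 and 9.13 after IL-33 and 8.59, 8.51 and 8.56 without stimulation, log2 0.43 ± 0.11 (SE, adjusted p = 0.034). Its IL-33 arrays all lay above its unstimulated arrays, but the call was lost without any one of the 3 unstimulated WT replicates or WT IL-33 replicate 1 or 3 (adjusted p up to 0.175) and where its probes were averaged (adjusted p = 0.11). All 72 intervals lay within 2-fold and 62 within 1.5-fold.

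Mrps18b illustrates the contrast between the stimuli: it had 7.41, 7.35 and 7.29 in ST2KO cells after IL-33, and 7.68, 7.04 and 7.96 in WT cells after IL-33. Its WT difference from unstimulated cells was log2 0.40 (adjusted p = 0.378) and passed without WT IL-33 replicate 2 (0.66, adjusted p = 0.0303). Mrpl51 differed by 0.33 (adjusted p = 0.55). In the other direction Mrps25 differed by -0.44 (adjusted p = 0.163), Mrpl39 by -0.41 (adjusted p = 0.156) and Mrps35 by -0.35 (adjusted p = 0.105), and the 3 passed with array weights only.

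Set directly against each other in WT cells, IL-33 gave lower levels than IgE for 33 of 72 genes and higher levels for 2, where 21.2% of all genes were lower and 21.8% higher. The median log2 difference over the 72 genes was -0.26, against 0.01 over all genes. Mrps18b differed by -1.94, Mrps6 by -1.71 and Mrps28 by -1.49. The 2 higher ones were Mrpl34, with means of 9.59 after IL-33 and 9.08 after IgE (log2 0.51 ± 0.15 SE, adjusted p = 0.012), and Mrpl24, with 9.64 after IL-33 and 9.15 after IgE (log2 0.49 ± 0.11 SE, adjusted p = 0.0011). This comparison shares the IgE arrays with the one above.

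**Figure D4:**
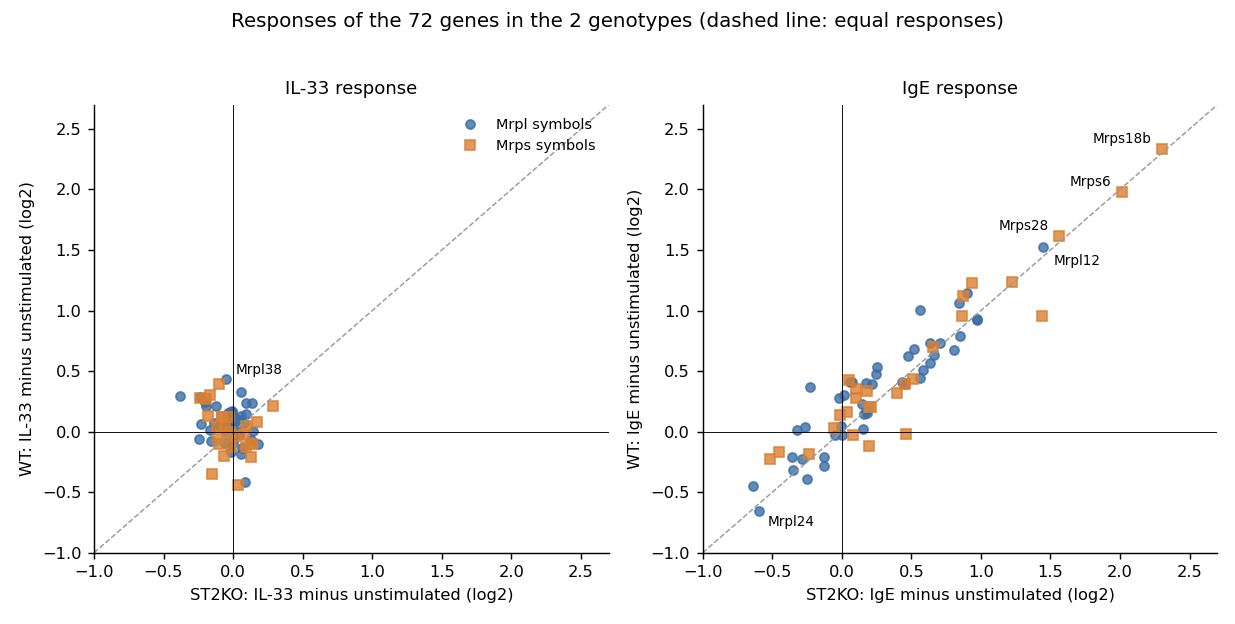
Log2 difference from unstimulated cells in WT (vertical) against ST2KO (horizontal) for the 72 genes, after IL-33 (left) and IgE (right), with Mrpl genes as circles and Mrps genes as squares. After IgE the genes follow the dashed line of equal responses from Mrpl24 up to Mrps18b at 2.30 and 2.34, and after IL-33 they stay between -0.44 and 0.43.

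Genotype by itself gave no difference that passed among the 72 genes. ST2KO against WT called 0 members without stimulation (7 at an unadjusted p under 0.05, limma), 0 after IgE (3 at an unadjusted p under 0.05) and 0 after IL-33 (8 at an unadjusted p under 0.05). Among all genes 0% passed without stimulation, 0.0201% after IgE and 6.07% after IL-33. The median over the 72 genes was 0.10 without stimulation and 0.02 without unstimulated WT replicate 2. The largest differences without stimulation were Mrpl52 at 0.61, Mrpl23 at 0.55 and Mrps31 at 0.43 upward and Mrps2 at -0.26 downward. Without unstimulated WT replicate 2 the value of Mrpl52 was 0.22 and that of Mrpl23 0.15. After IL-33 the largest difference upward was Mrpl39 at 0.47 (adjusted p = 0.0632) and downward Mrpl38 at -0.32 (adjusted p = 0.107). Mrps31 was on the higher side in ST2KO cells in all 3 conditions, by 0.43, 0.42 after IgE and 0.39 after IL-33, none of which passed, and over single arrays left out its value after IL-33 ran from 0.13 to 0.53. After IgE the 95% intervals of all 72 lay within 2-fold, and without stimulation those of 70 did. The IL-33 response differed between genotypes for 0 members (4 at an unadjusted p under 0.05, limma) and for 1.76% of all genes.

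Promoter sequences from RefSeq (GRCm38.p6, 250 bases before to 50 after the start) were at hand for 64 of the 72 genes. Shown are 4 of the genes with the highest rises, the 2 that fell in both genotypes by the largest amounts and Mrpl46, which lies head to head with Mrps11. They were chosen after their values were seen, and no sequence was at hand for Mrps28. Each is written 5′ to 3′ on the gene's strand, and capitals mark matches on either strand to the motifs searched: ETS (CCGGAAG), NRF1 (GCGCA, any base, GCGC), YY1 (AAGATGGC), the E-box (CACGTG) and the GC box (GGGCGG).
Mrps18b: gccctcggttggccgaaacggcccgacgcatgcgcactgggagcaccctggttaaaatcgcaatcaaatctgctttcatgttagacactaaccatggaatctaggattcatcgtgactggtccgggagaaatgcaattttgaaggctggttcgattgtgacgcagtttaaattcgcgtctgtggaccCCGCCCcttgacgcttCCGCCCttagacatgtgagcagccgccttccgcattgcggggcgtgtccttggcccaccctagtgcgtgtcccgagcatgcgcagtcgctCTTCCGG
Mrps6: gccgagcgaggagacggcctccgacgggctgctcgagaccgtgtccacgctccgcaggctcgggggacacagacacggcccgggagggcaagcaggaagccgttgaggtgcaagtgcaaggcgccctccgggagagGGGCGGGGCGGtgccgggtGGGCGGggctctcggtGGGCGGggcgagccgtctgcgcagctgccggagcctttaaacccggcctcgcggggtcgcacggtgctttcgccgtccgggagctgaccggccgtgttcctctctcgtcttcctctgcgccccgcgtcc
Mrpl12: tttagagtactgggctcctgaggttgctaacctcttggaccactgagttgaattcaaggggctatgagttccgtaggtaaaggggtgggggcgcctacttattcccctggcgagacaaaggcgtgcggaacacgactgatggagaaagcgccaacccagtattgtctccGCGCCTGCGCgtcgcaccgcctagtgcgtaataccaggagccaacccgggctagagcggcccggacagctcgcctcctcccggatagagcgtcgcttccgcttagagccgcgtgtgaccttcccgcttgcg
Mrps10: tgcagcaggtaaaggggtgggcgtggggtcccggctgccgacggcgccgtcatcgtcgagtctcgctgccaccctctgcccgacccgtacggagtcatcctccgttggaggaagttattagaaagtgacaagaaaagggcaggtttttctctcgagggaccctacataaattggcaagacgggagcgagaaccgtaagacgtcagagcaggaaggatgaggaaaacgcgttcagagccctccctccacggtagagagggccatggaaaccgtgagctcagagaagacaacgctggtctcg
Mrpl24: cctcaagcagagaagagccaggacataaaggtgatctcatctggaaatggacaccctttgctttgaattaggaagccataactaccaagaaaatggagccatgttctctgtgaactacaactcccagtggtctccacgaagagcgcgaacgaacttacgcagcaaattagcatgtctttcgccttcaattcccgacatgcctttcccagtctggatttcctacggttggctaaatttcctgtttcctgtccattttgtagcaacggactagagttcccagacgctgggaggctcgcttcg
Mrpl34: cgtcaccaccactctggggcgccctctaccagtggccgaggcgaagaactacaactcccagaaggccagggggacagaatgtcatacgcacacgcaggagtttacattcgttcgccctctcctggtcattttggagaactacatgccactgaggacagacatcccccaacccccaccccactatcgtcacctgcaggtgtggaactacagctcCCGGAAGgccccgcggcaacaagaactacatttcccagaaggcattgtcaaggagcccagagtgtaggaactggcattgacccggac
Mrpl46: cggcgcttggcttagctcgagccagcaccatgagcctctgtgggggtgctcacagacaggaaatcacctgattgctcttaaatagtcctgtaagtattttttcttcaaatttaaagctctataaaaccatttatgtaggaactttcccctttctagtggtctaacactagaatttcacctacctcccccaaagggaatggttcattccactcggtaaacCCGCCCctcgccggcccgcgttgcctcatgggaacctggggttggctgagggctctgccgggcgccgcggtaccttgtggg

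These windows are chr17:35916391-35916690 (minus strand) for Mrps18b, chr16:92058086-92058385 (plus) for Mrps6, chr11:120484387-120484686 (plus) for Mrpl12 and chr17:47368947-47369246 (plus) for Mrps10. For the others they are chr3:87919294-87919593 (plus) for Mrpl24, chr8:71464676-71464975 (plus) for Mrpl34 and chr7:78783040-78783339 (minus) for Mrpl46. Mrps18b has an ETS match that begins 44 bases after the start and a pair of GC box matches before it. Mrps6 has 4 GC box matches, of which the first 2 overlap by 1 base, and no ETS match. Mrpl12 has an NRF1 match 81 bases before the start, and Mrpl34, which fell, has an ETS match 37 bases before it. Mrps10 and Mrpl24 have none of the 5 motifs in this window.

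Over the 64 promoters the ETS letters occurred in 39.1%, against 18.5% of the 8129 promoters of genes tested. YY1 letters occurred in 17.2% against 4.83%, NRF1 letters in 17.2% against 10.5%, the E-box in 7.81% against 10.3% and the GC box in 48.4% against 63.3%. Among the 25 promoters of genes that rose in both genotypes ETS letters occurred in 36% and among the other 39 in 41%. For YY1 these shares were 24% and 12.8%, for NRF1 8% and 23.1%, for the E-box 12% and 5.13%, and for the GC box 36% and 56.4%. A match describes the letters and not binding, and these differences were not tested.

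Many of the genes share their start region with a gene on the other strand. A divergent neighbour started within 1000 bases for 24 of the 64 genes (37.5%), against 19.1% of genes tested. In 16 pairs both genes were tested, with Mrpl46 and Mrps11 counted from both sides, and the IgE differences of a pair had the same sign in 12 pairs in ST2KO cells and in 8 in WT cells. Mrpl46 and Mrps11, a large- and a small-subunit gene whose starts lie 42 bases apart, differed: Mrpl46 rose by 0.46 in ST2KO cells and 0.39 in WT cells, and Mrps11 had 0.19 (adjusted p = 0.152) and -0.12 (adjusted p = 0.412). Examples chosen after their values were seen follow. Mrpl2 had 0.16 in ST2KO cells, beside its neighbour Klc4, a kinesin light chain gene, at -2.22 (adjusted p = 2.59e-10). Mrpl51 had 0.25 in ST2KO cells and 0.48 in WT cells on its brightest probe, neither of which passed (limma, adjusted p = 0.362 and 0.0737). A probe of similar brightness rose by 0.65 and 0.955 (limma, adjusted p over kept probes = 0.00119 and 3.28e-05), and the remaining probe differed by 0.26 and 0.12. Ncapd2, a condensin gene next to Mrpl51, fell by 0.76 in ST2KO cells and 0.97 in WT cells. Mrps12, which encodes a protein of the decoding centre, had 0.18 in ST2KO cells and 0.34 in WT cells on its brightest probe. Of these the WT value passed with replicate numbers blocked (limma, adjusted p = 0.033), and neither did without the block. Its other kept probe had 0.12 and 0.39 without the block (limma, adjusted p over kept probes = 0.543 and 0.0341). Sars2, the neighbour of Mrps12 and the mitochondrial seryl-tRNA synthetase, rose by 0.33 in ST2KO cells and 0.48 in WT cells.

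Of the ribosomal protein genes of the cytosol more fell than rose. Of 54 measured, 2 rose and 15 fell in ST2KO cells after IgE, and 4 rose and 15 fell in WT cells, with medians of -0.20 in ST2KO cells and -0.17 in WT cells. Among all genes 22.8% rose and 26.4% fell in ST2KO cells, and 22.7% rose and 24.3% fell in WT cells. The falls of the 54 were thus near the share of all genes, and their rises were below it. Rpl7l1, a gene of the same family as Rpl7, rose by 1.17 in ST2KO cells and 1.34 in WT cells, and Rps15a by 0.87 and 0.93, while Rpl22 fell by 1.11 in ST2KO cells and by 0.93 in WT cells. Rps27l rose by 0.91 in WT cells and differed by 0.36 in ST2KO cells (adjusted p = 0.138). The 73 measured nuclear subunits of the respiratory chain and ATP synthase had 15 higher and 12 lower in ST2KO cells, and 29 higher and 8 lower in WT cells, with medians of 0.14 and 0.36. Ndufb6 of complex I rose by 0.90 in ST2KO cells and 1.22 in WT cells and Cox7a2 of complex IV by 0.92 and 1.19, while Cox7a2l, a protein linked to respiratory supercomplexes, fell by 1.16 in ST2KO cells and by 1.38 in WT cells. The difference between lists was not tested.

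**Figure D5:**
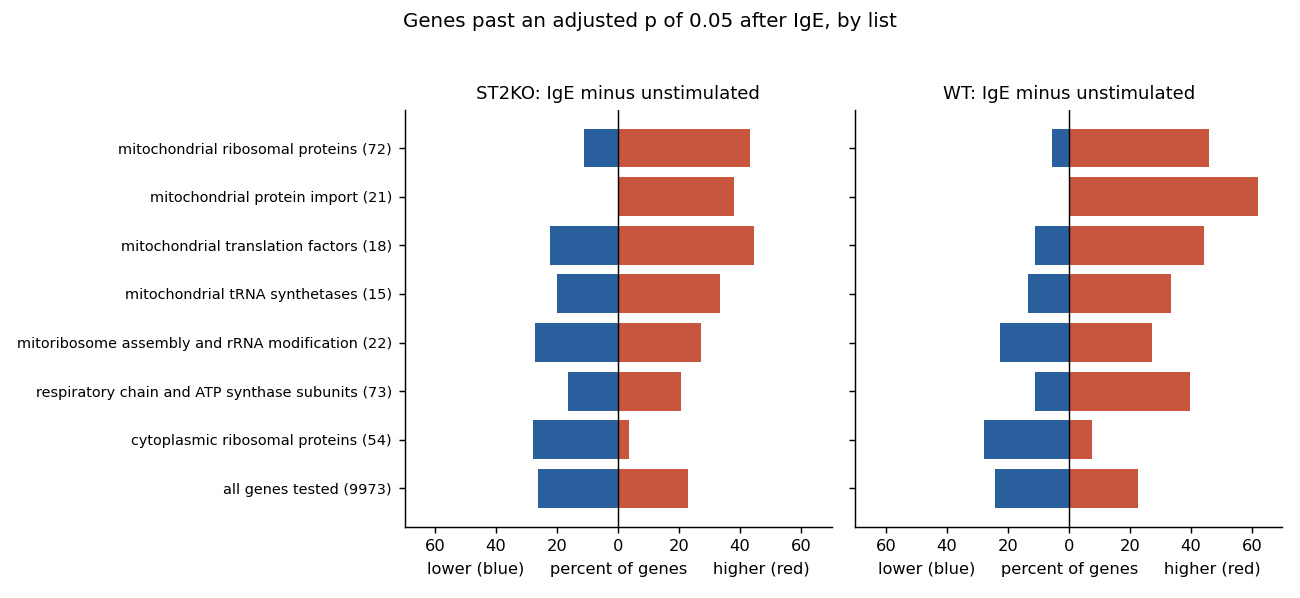
Percent of genes in each list that were higher (red, right) or lower (blue, left) after IgE at an adjusted p under 0.05, in ST2KO cells (left) and WT cells (right), with the number of genes measured in parentheses. Mitochondrial ribosomal proteins have 43.1% higher in ST2KO cells and 45.8% in WT cells, against 22.8% and 22.7% of all genes tested.

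Genes that work with the mitochondrial ribosome are given for IgE, where among all genes 22.8% rose and 26.4% fell in ST2KO cells and 22.7% rose and 24.3% fell in WT cells. Ribosomal subunits with other names gave 2 higher and 1 lower of 4 in each genotype: Ptcd3, a pentatricopeptide repeat protein of the small subunit, rose by 0.56 in ST2KO cells and 0.83 in WT cells, and Dap3, its GTP-binding protein, fell by 0.71 in ST2KO cells and by 0.70 in WT cells. Chchd1 rose by 0.61 in WT cells and differed by 0.28 in ST2KO cells (adjusted p = 0.125). Among 22 genes of ribosome assembly and rRNA modification, 6 rose and 6 fell in ST2KO cells (27.3% each) and 6 rose and 5 fell in WT cells (27.3% and 22.7%), close to the shares of all genes. Mrm3, which methylates the large ribosomal RNA, rose by 1.57 in ST2KO cells and 1.31 in WT cells, Rcc1l by 1.21 and 1.21 and the GTPase Noa1 by 0.95 and 1.09, while Mettl17, a small-subunit assembly factor, fell by 0.86 in ST2KO cells and by 0.76 in WT cells.

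Of 18 mitochondrial translation factors and mRNA-binding proteins, 8 rose and 4 fell in ST2KO cells and 8 rose and 2 fell in WT cells. C1qbp, a matrix protein needed for mitochondrial translation, rose by 1.82 in ST2KO cells and 1.92 in WT cells, Lrpprc, which stabilises mitochondrial mRNAs, by 1.45 and 1.05, and the elongation factor Gfm1 by 0.83 and 0.88. Slirp, the partner of Lrpprc, rose by 0.95 in WT cells and differed by 0.51 in ST2KO cells (adjusted p = 0.111). Of 15 mitochondrial tRNA synthetases, 5 rose and 3 fell in ST2KO cells and 5 rose and 2 fell in WT cells, with Rars2 up by 0.85 in ST2KO cells and 0.96 in WT cells, Mars2 up by 0.57 and 0.55, and Vars2 lower at -0.62 and -0.73.

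Of 9 genes of mitochondrial transcription and DNA maintenance, 2 rose and 4 fell in ST2KO cells and 4 rose and 3 fell in WT cells. The elongation factor Tefm rose by 1.35 in ST2KO cells and 0.98 in WT cells. The DNA polymerase subunits Polg and Polg2 and the termination factor Mterf1a were lower, Polg at -1.31 in ST2KO cells and -1.05 in WT cells, Polg2 at -0.84 and -0.77, and Mterf1a at -0.71 and -0.62. Import genes gave 8 higher and 0 lower of 21 in ST2KO cells (8 at an unadjusted p under 0.05, limma) and 13 higher and 0 lower in WT cells (14 at an unadjusted p under 0.05). The small chaperones Timm8a1 and Timm9 rose by 1.98 and 1.80 in ST2KO cells and by 1.95 and 1.94 in WT cells, and the matrix chaperones Hspa9 and Hspd1 by 1.55 and 1.57 in ST2KO cells and by 1.66 and 1.54 in WT cells. Of 9 mitochondrial proteases and stress proteins 4 rose and 1 fell in each genotype, among them Clpp up by 0.62 in ST2KO cells and 0.65 in WT cells and Oma1 lower at -0.62 and -0.58.

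Among 9 regulators of mitochondrial biogenesis, 5 rose and 1 fell in ST2KO cells and 5 rose and 2 fell in WT cells. Pprc1, a coactivator of nuclear genes for mitochondrial proteins, rose by 3.24 ± 0.22 in ST2KO cells (SE, adjusted p = 3.71e-09) and 3.31 ± 0.22 in WT cells (SE, adjusted p = 3.47e-09). Gabpb1, a subunit of an ETS-family factor, rose by 2.34 in ST2KO cells and 2.02 in WT cells and Foxo3 by 0.78 and 0.89. Max, the partner of Myc, was lower at -0.68 in ST2KO cells and -0.65 in WT cells. None of these lists, the cytosolic ribosomal proteins and respiratory chain included, had a member past the test after IL-33 in either genotype. Few of all genes passed there: 3.01% rose and 0.772% fell in WT cells, and 0% passed in ST2KO cells.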

How the data were processed

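Total RNA of 18 samples was labelled with biotin and hybridised to Illumina bead arrays. Signal intensity and detection p-values per probe are as the authors deposited them, and per the file headers they are non-normalized signals. The authors also deposited log2 values with the same distribution on every array, used as an alternative, which rank probes as the intensities do on each array. Their making is not stated in the labels.

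Probes with a detection p under 0.05 on 3 or more of 18 arrays were kept (18078 of 45281). Gene symbols come from the platform annotation, which pairs 34885 probes with 1 symbol, 18 with several and 10378 with none. RefSeq changed 0 of the symbols. With limma 3.58.1 (R 4.3.3), neqc corrected background by the detection p-values with an offset of 16 and quantile normalized the arrays. The brightest kept probe stood for its gene. A linear model of the 6 group means over all 18 arrays, with eBayes, gave 10 comparisons, and p-values were Benjamini-Hochberg adjusted over 9973 genes within each. A gene passed at an adjusted p under 0.05. The pipeline was checked on simulated data, where 16 of 50 genes with a true log2 difference of 0.5 passed, and 45 of 50 with 1. Far fewer genes were changed there than differed after IgE here, so these shares need not hold for the IgE comparisons. Where no array of a group had the probe above background, that group gives a bound alone. The fold is then at least the bright group's mean over the higher of the lowest detected signal and the probe's own.

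Named were, per comparison, up to 10 genes that passed in each direction, or the 3 largest where fewer than 3 passed, the 5 brightest and dimmest, the 3 widest and narrowest ranges, genes that passed with probes of opposite sign, and up to 4 genes per other list. The genes and lists were chosen with earlier results of these data known. Same-numbered arrays deviated together, by correlations of 0.22 to 0.31 for IgE in WT, 0.12 to 0.21 for IgE in ST2KO and 0.18 to 0.59 for IL-33 in WT. For IL-33 in ST2KO the correlations were -0.03 to 0.26. The column headers attach the replicate number to the genotype name and repeat it across stimuli, but do not say what it shares. The main model did not use this pairing. No 2 arrays held identical values. The number of arrays limits the precision. Alternatives covered background, normalization, probe filter and choice, samples in the fit, array weights, variance model, replicate blocks and leaving out arrays. Files name no slides, so slides were not tested as a block. Promoters come from RefSeq (GRCm38.p6).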

Additional observations from a re-analysis of the deposited data

Results flagged for a closer look

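Mrps11 is singled out because, on its brightest probe, its IgE arrays were all higher than unstimulated arrays in ST2KO cells and all lower in WT cells. It had 8.62, 8.51 and 8.50 after IgE and 8.38, 8.31 and 8.35 without stimulation in ST2KO cells, and 8.38, 8.42 and 8.44 after IgE and 8.46, 8.48 and 8.65 without stimulation in WT cells. The IgE response was 0.31 ± 0.15 higher in ST2KO than in WT cells (log2, SE) and did not pass the interaction test (limma, unadjusted p = 0.059, adjusted p = 0.982). The other kept probe of Mrps11 showed little difference after IgE, at log2 0.03 in ST2KO cells and -0.02 in WT cells.

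Mrps18a is singled out on the same ground after IL-33. It had 8.31, 8.11 and 8.16 after IL-33 and 8.34, 8.38 and 8.36 without stimulation in ST2KO cells, and 8.51, 8.34 and 8.54 after IL-33 and 8.15, 7.99 and 8.34 without stimulation in WT cells. Its IL-33 response differed by -0.47 ± 0.16 between ST2KO and WT cells (log2, SE; limma, unadjusted p = 0.00813, adjusted p = 0.213), which did not pass. No share of all genes with such opposite separation is given, so how unusual it is for Mrps11 or Mrps18a was not assessed.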

How the results depend on the processing

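Of 2763 recomputed gene results 2701 kept their direction and side of the threshold, 43 lost the call, 16 gained it and 3 changed sign, none of them called: Mrps25 between unstimulated ST2KO and WT cells was at 0.23 with the mean of kept probes and 0.042 without unstimulated ST2KO replicate 1 (range -0.24 to 0.042 when 1 array was left out), and the difference of its IgE responses was at -0.031 with the mean of kept probes. The IgE counts stayed within 1.5 times under all alternatives run, with 35 to 54 members called in ST2KO cells and 33 to 54 in WT cells. When 1 array was left out they were 35 to 40 in ST2KO cells and 34 to 39 in WT cells. With the replicate number as a block within genotype, 37 genes were higher and 5 lower after IgE in WT cells, with Mrpl33, Mrps12, Mrps15 and Mrps18c added upward and Mrpl48 downward, and this block changed no other call of a member in comparisons within a genotype or of responses. After IL-33 in WT cells 0 members passed with scaling to the 75th percentile, 0 with median scaling, 0 with the mean of kept probes, 0 with the compared groups alone and 4 with array weights (1 higher and 3 lower), and 0 to 2 when 1 array was left out. For ST2KO against WT after IL-33, 1 passed with probes detected on all arrays, 1 with the mean of probes, 5 with array weights and 2 without the WT replicate 2 arrays, and 0 to 1 when 1 array was left out. The IL-33 response differed between genotypes for 1 member with array weights and for 1 without the WT replicate 2 arrays.

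The median over the members after IgE was 0.10 with median scaling in ST2KO cells, and in WT cells 0.29 without background correction, 0.30 with array weights, 0.22 without the WT replicate 2 arrays and 0.22 to 0.43 when 1 array was left out. After IL-33 in ST2KO cells it was -0.16 with median scaling, which moves the median of all genes to -0.11, against -0.01 with quantile normalization. Leaving out 1 array gave -0.068 to 0.10 after IL-33 in WT cells, -0.34 to -0.20 for IL-33 against IgE, -0.11 to 0.023 for the difference of IL-33 responses and 0.025 to 0.13 for unstimulated ST2KO against WT, which was 0.025 without the WT replicate 2 arrays. The cause was not tested. Calls of smaller falls after IgE depended on single arrays: Mrpl4 was lost without unstimulated ST2KO replicate 1 (adjusted p = 0.0508), Mrpl28 without unstimulated ST2KO replicate 1 or 2 or ST2KO IgE replicate 1 or 3 (up to 0.085), Mrpl30 without unstimulated ST2KO replicate 2 or 3 or ST2KO IgE replicate 1 or 2 (up to 0.203) and Mrpl39 in WT cells without unstimulated WT replicate 1 or 2 or WT IgE replicate 1 or 2. The Mrpl39 call was also lost without background correction (log2 -0.13), with the compared groups alone, with array weights, with trended robust variance and without the WT replicate 2 arrays, 9 of 32 alternatives in all (adjusted p up to 0.148). Mrpl34 in WT cells was lost without unstimulated WT replicate 1 or 3 or WT IgE replicate 1 (up to 0.126). Mrpl49 was lost with the mean of kept probes (adjusted p = 0.633 in ST2KO cells and 0.508 in WT cells), without unstimulated ST2KO replicate 1 or ST2KO IgE replicate 2, and without unstimulated WT replicate 1 or 3 or WT IgE replicate 1 or 3. Mrpl38 after IL-33 in WT cells was lost without any one of the 3 unstimulated WT arrays or without WT IL-33 replicate 1 or 3 (up to 0.263 over all alternatives). Mrpl57 was above background on 8 arrays, Mrpl35 on 10 and Mrpl51 on 14 of 18, which limits their differences.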
